A study of Mus musculus with 3 samples.

Results

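The 40 genes described here carry out protein folding and the stress response of the endoplasmic reticulum (ER), the compartment in which secreted and membrane proteins are made. They were chosen by name, as a list of known members of these pathways, and all 40 were found among the 23271 genes of the merged single-cell table. They fall into 5 roles: 15 chaperones and folding enzymes, 7 genes of ER-associated degradation (ERAD), 4 stress sensors and their transcription factor, 6 genes of the ATF4 branch, and 8 genes of the channel and enzymes through which new proteins enter the ER. The measurements came from organoids, crypt-like cultures grown in Matrigel from proximal small intestinal crypts of C57BL/6 mice, and were taken on day 6 with Seq-Well, which captures the mRNA of single cells on barcoded beads in microwells. Every culture had been expanded beforehand with CHIR99021 and valproic acid, and all 3 groups received EGF, Noggin and R-spondin 1 (ENR). The ENR group received nothing else. The ENR+CD group also received 3 µM CHIR99021, an inhibitor of GSK3 that activates Wnt signalling, and 10 µM DAPT, an inhibitor of gamma-secretase that blocks Notch signalling, and is labelled as enriched for Paneth cells. The ENR+CV group also received 3 µM CHIR99021 and 1 mM valproic acid, a histone deacetylase inhibitor, and is labelled as enriched for intestinal stem cells. All organoids came from 1 donor and each condition was 1 library from pooled wells, so that culture-to-culture and library differences cannot be told apart from the treatments, and no spread between animals was measured.

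Because there was 1 library for each condition, no test across replicates was possible and no p-value is given. Unique molecular identifiers (UMIs, 1 for each captured mRNA molecule) were summed over the cells of a library and given as CPM, the usual scaling of a count by its library's total, and each value in square brackets is an exact 95% interval that covers counting error only. A gene was called higher or lower when its CPM differed at least 2-fold between a pair of libraries, the intervals did not overlap, and the pair held at least 20 UMIs. In ENR 2545 cells were kept, with 2383 cells in ENR+CD and 985 cells in ENR+CV, and these held 5095089, 4538388 and 2942252 UMIs. ENR+CV cells were deeper, with a median of 2499 UMIs against 1553 in ENR and 1543 in ENR+CD. Alpha-defensin (Defa) genes took 2.93%, 10.6% and 0.365% of the UMIs of ENR, ENR+CD and ENR+CV, and mitochondrial genes 16.5%, 8.67% and 3.89%. Epcam, which marks epithelium, stood at 1211, 1190 and 1690 CPM, whereas Ptprc, which marks blood cells, had 1, 1 and 2 UMIs. Other genes of the same immune list were detected, with 256, 1048 and 26 UMIs of Lyz2 and 201, 124 and 94 of Itgam. That list summed to 90.5, 258.5 and 41.8 CPM. Vim, from a list for stroma and endothelium, stood at 34.7, 66.3 and 247 CPM. A list of immediate early genes induced by cell dissociation summed to 2185, 3249 and 4667 CPM in the same order. Its part in the values below was not tested. Only 1 cell barcode with at least 1000 UMIs was shared by any pair of libraries.

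The labels of the separate deposited tables disagreed with the merged table. All 1092 merged cells named as stem cell enriched were found in the table attached to the ENR+CD sample, and all 2506 merged cells named as Paneth enriched in the table attached to the ENR+CV sample. Cells were assigned by their names in the merged table. Under these names 12 Paneth cell markers, Lyz1, Mmp7 and Defa genes among them, summed to 35280 CPM in ENR, against 144800 in ENR+CD and 5644 in ENR+CV, so that the library named as Paneth enriched held the most. Under the merged names 985 ENR+CV and 2383 ENR+CD cells passed the filters. The paper also counts 985 cells for ENR+CV, where the attachment would give that condition the 2383 cells. Only if the attachment held instead would the ENR+CD and ENR+CV values below change places. The ENR library, in which all 2651 cells matched, does not depend on this.

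As background, proteins that enter the ER are folded by chaperones such as BiP (Hspa5), by protein disulfide isomerases, and by the lectins calnexin and calreticulin, and those that fail to fold are returned to the cytosol for degradation. When unfolded proteins build up, IRE1 splices Xbp1 mRNA and ATF6 is cut to an active factor, and both raise transcription of chaperones and ERAD genes. PERK phosphorylates eIF2alpha, which favours translation of ATF4 and its targets, a set that shortage of amino acids can also induce. Paneth and goblet cells secrete large amounts of protein, and intestinal epithelium has its own IRE1 paralogue, IRE1beta (Ern2).

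The promoters of these genes differ by role in the short elements through which the factors of the stress response act, and the stretches below are shown because the letters found in chaperone promoters were not those found in ATF4 branch promoters. Holding an element did not go with 1 direction of the levels given further on: Nupr1 and Asns both held CARE, and Canx held ERSE at a ratio near 1. Both strands of the 300 bases from 250 before to 50 after each start site were searched in the RefSeq promoter table (build GRCm38.p6), in which 31 of the 40 members were matched. The ER stress response element (ERSE), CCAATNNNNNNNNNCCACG, was present in 9 of the 31 members against 37 of all 27025 genes in the table (0.137%). Those 9 were 7 of the 13 matched chaperones and 2 of the 6 matched ERAD genes. None of the 2 matched sensors, 6 matched ATF4 branch genes and 4 matched entry genes held it, and the unmatched genes were not searched. ERSE-II, ATTGGNCCACG, was found in Herpud1 and, after the start site, in Dnajb11, against 12 of all genes (0.0444%). The amino acid response element CARE, TGATGNAA, was found in 4 of the 6 ATF4 branch genes and in Herpud1, against 1219 of all genes (4.51%). The UPRE letters TGACGTGG, present in 0.714% of all genes, were in none of the matched members. A match is a description of the letters and not evidence of binding. Each stretch is given 5′ to 3′ on the strand of its gene, with the element in capitals, first for chaperones, then Herpud1, then the ATF4 branch. The ERSE of Hspa5 spans 65 to 47 bases before the RefSeq start site, and the CARE of Asns 23 to 16 and that of Nupr1 110 to 103 bases before it. In Hsp90b1 (second stretch), Calr, Creld2, Nupr1 and Chac1 the element lies in the reverse orientation.
Hspa5 at chr2:34772020-34772048 (+): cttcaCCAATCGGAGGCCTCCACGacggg
Hsp90b1 at chr10:86705633-86705661 (-): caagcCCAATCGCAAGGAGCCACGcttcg
Hsp90b1 at chr10:86705528-86705556 (-): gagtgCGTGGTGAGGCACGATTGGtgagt
Calr at chr8:84847070-84847098 (-): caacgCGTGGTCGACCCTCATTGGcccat
Canx at chr11:50325795-50325823 (-): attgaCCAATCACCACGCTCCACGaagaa
Dnajc3 at chr14:118937822-118937850 (+): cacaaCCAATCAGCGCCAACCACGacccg
Creld2 at chr15:88819515-88819543 (+): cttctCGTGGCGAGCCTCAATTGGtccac
Herpud1 (ERSE-II) at chr8:94386372-94386392 (+): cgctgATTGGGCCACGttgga
Asns (CARE) at chr6:7693220-7693237 (-): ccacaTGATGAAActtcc
Nupr1 (CARE) at chr7:126625568-126625585 (-): ccagaTTGCATCAgacag
Chac1 (CARE) at chr2:119351044-119351061 (+): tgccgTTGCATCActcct

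Across the libraries, the folding, degradation and entry genes stood somewhat above ENR in ENR+CD, while most of the ATF4 branch stood below it. The 40 members together took 0.726% of ENR, 0.969% of ENR+CD and 0.939% of ENR+CV UMIs. Between ENR+CD and ENR, 39 members had enough UMIs, and Derl3, with 4, 5 and 1 UMIs in ENR, ENR+CD and ENR+CV, had not. Of the 39, 3 were called higher in ENR+CD (Dnajb9, Ern1 and Nupr1), where the rule called 10.8% of 12197 genes higher, and 2 were called lower (Trib3 and Asns), where it called 9.35% lower. The members were thus not called more often than other genes, and their differences were mostly under 2-fold. Their median log2 ratio was 0.44 against -0.01 over all genes. An interval wholly above 1 was found for 30 of 39, against 27.3% of all genes. For 5 it was wholly below 1, against 28.6% of all genes. Intervals narrow as UMIs increase, and the members were not matched to other genes in UMIs.

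Between ENR+CV and ENR, 2 members were called higher (Pdia4 and Dnajb9), with a background of 15.9% of 11962 genes, and 1 lower (Ern2), with a background of 5.8%. The median log2 ratio of the members was 0.20 and that of all genes 0.35, a shift of all genes that moved to -0.02 when size factors from the median of ratios replaced the totals. Relative to the median of all genes, the members' median differed by -0.16 on the log2 scale for ENR+CV over ENR and by 0.44 for ENR+CD over ENR, which a change of scaling does not alter. Between ENR+CD and ENR+CV, 4 members were called higher in ENR+CD (Dnajc3, Ern1, Ern2 and Nupr1; background 7.1% of 12099 genes) and 2 lower (Trib3 and Asns; background 18.9%). These 3 comparisons share libraries, so their values are not independent of each other.

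**Figure D1:**
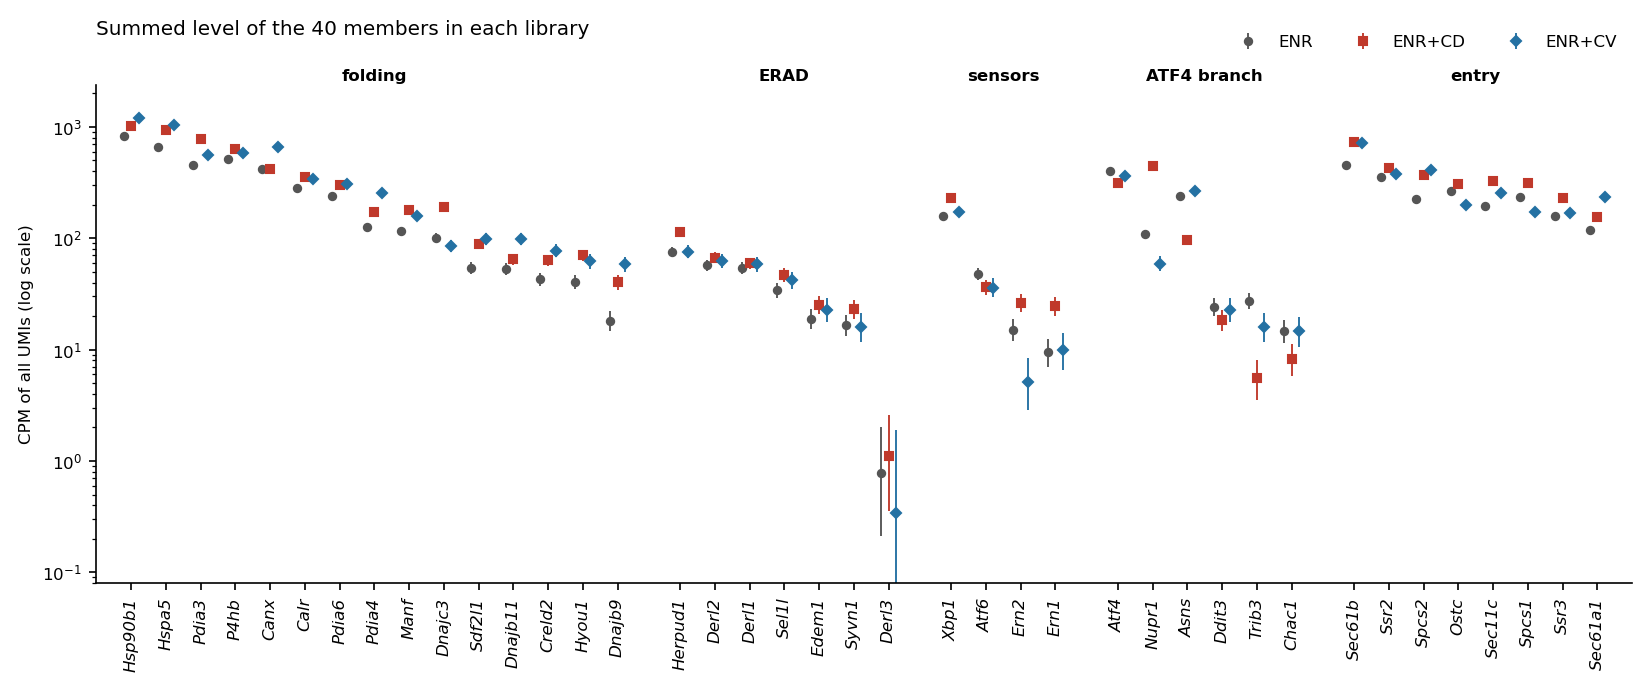
Level of each of the 40 genes in the ENR, ENR+CD and ENR+CV libraries, as CPM on a log axis, grouped by role. Points are summed UMIs and bars exact Poisson 95% intervals, which cover counting error only. Nupr1 spans the widest range, 59.1 to 449.5 CPM.

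The chaperones and folding enzymes summed to 3948 CPM in ENR, against 5284 in ENR+CD and 5605 in ENR+CV, that is 1.34-fold [1.31–1.36] the ENR level in ENR+CD and 1.42-fold [1.39–1.45] in ENR+CV. All 15 had a ratio above 1 in ENR+CD, 14 of them with an interval wholly above 1. In ENR+CV 14 of the 15 intervals were wholly above 1, where 45.9% of all genes had such an interval. The remaining 1, that of Dnajc3, was wholly below 1, as in 12.7% of all genes. The medians were 0.51 in ENR+CD and 0.61 in ENR+CV on the log2 scale, the first against -0.01 and the second against 0.35 over all genes.

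Hspa5, which encodes BiP, the central ER chaperone and regulator of the sensors, stood at 654 CPM in ENR, against 929 in ENR+CD and 1043 in ENR+CV. Its ratio to ENR was 1.42 [1.36–1.49] in ENR+CD and 1.60 [1.52–1.68] in ENR+CV, under the 2-fold limit in both. Hsp90b1, the ER form of HSP90, had 829, 1008 and 1213 CPM in the same order. Both thus were lowest in ENR, with intervals that did not overlap. P4hb and Pdia3, disulfide isomerases, behaved differently from each other. P4hb differed little, with 513, 630.0 and 587 CPM and a ratio of 1.23 [1.17–1.30] in ENR+CD. Pdia3, which works with calnexin and calreticulin on glycoproteins, had 457, 772 and 563 CPM, and so was 1.69-fold [1.60–1.78] the ENR level in ENR+CD and 1.23-fold in ENR+CV.

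Pdia4, another disulfide isomerase, had 127, 171 and 256 CPM and was called higher in ENR+CV than in ENR at 2.02-fold [1.82–2.25]. That value lay at the limit, and the call was lost outside Defa genes, outside Defa, mitochondrial and ribosomal protein genes, with median of ratios size factors, and with all cells of the merged table. Dnajb9, the BiP cochaperone ERdj4 and a known target of XBP1, had 18.1 CPM in ENR, against 40.1 in ENR+CD and 58.5 in ENR+CV, from 92, 182 and 172 UMIs. It was called higher than in ENR in both treated libraries, at 2.22-fold [1.72–2.89] and 3.24-fold [2.5–4.22]. Dnajc3, which encodes p58IPK, a BiP cochaperone that also inhibits PERK, had 101 CPM in ENR, against 192 in ENR+CD and 85.3 in ENR+CV. It was called higher in ENR+CD than in ENR+CV at 2.25-fold [1.96–2.6], and its ratio in ENR+CD over ENR, 1.90 [1.70–2.12], fell short of the limit. Dnajb9 and Dnajc3 therefore differed in which library held the highest level, although both serve BiP.

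The other 8 chaperones had ratios of 1.01 to 1.74 in ENR+CD over ENR and of 1.19 to 1.86 in ENR+CV over ENR, with no call. Canx, the membrane lectin calnexin, was at 418 and 422 CPM in ENR and ENR+CD and at 660.4 CPM in ENR+CV, the 1 chaperone whose ENR+CD interval, [0.95–1.08], included 1. Hyou1, a large HSP70 relative that exchanges nucleotide on BiP, was at 40.6, 70.5 and 61.9 CPM, the highest ratio of the 8 in ENR+CD at 1.74.

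The genes of ERAD summed to 257, 335 and 278 CPM in ENR, ENR+CD and ENR+CV, and none was called in any pair. Herpud1, which joins the ubiquitin ligase complex in the ER membrane and holds ERSE-II, had 75.4, 113 and 75.8 CPM, 1.49-fold [1.31–1.71] the ENR level in ENR+CD and 1.01-fold in ENR+CV. Sel1l, the adaptor of the ligase encoded by Syvn1, had 34.0, 46.9 and 42.1 CPM. The derlins, thought to form the exit channel, differed least, with Derl1 at 54.4, 59.5 and 58.5 CPM and Derl2 at 56.9, 66.8 and 62.9 CPM. In ENR+CD 4 of 6 intervals were wholly above 1, and in ENR+CV none was, against 27.3% and 45.9% of all genes.

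The sensors did not move as a set. Xbp1, the factor downstream of IRE1, had 157 CPM in ENR, against 229 in ENR+CD and 172 in ENR+CV, a ratio of 1.46 [1.33–1.60] in ENR+CD and 1.09 in ENR+CV. Counts of 3′ ends do not separate its spliced from its unspliced form. Ern1, which encodes IRE1alpha, had 9.42, 24.5 and 9.86 CPM, from 48, 111 and 29 UMIs. It was called higher in ENR+CD than in ENR, at 2.6-fold [1.84–3.72], and than in ENR+CV, at 2.48-fold [1.64–3.88]. Ern2, the epithelial IRE1beta (chr7:122169893-122186207, minus strand), had 15.1, 26.2 and 5.10 CPM, from 77, 119 and 15 UMIs. Its level in ENR+CV was called lower than in ENR, with a ratio of 0.337 [0.180–0.592], and than in ENR+CD, which held 5.14-fold [3.0–9.48] more. Atf6, the sensor that becomes a transcription factor after cleavage, went the other way, with 47.9 CPM in ENR, against 36.6 in ENR+CD and 36.0 in ENR+CV. In ENR 83 of its 244 UMIs lay in 98 cells with a UMI of Tph1, an enteroendocrine gene described further on. Outside cells with Tph1, Atf6 stood at 33.1, 35.1 and 36.2 CPM in the same order, so that ENR was not the highest. That split was chosen after values had been seen. The Atf6 ratio in ENR+CD, 0.764 [0.623–0.934], became 1.21 in cells under 2000 UMIs, and that in ENR+CV, 0.752, became 1.56.

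**Figure D2:**
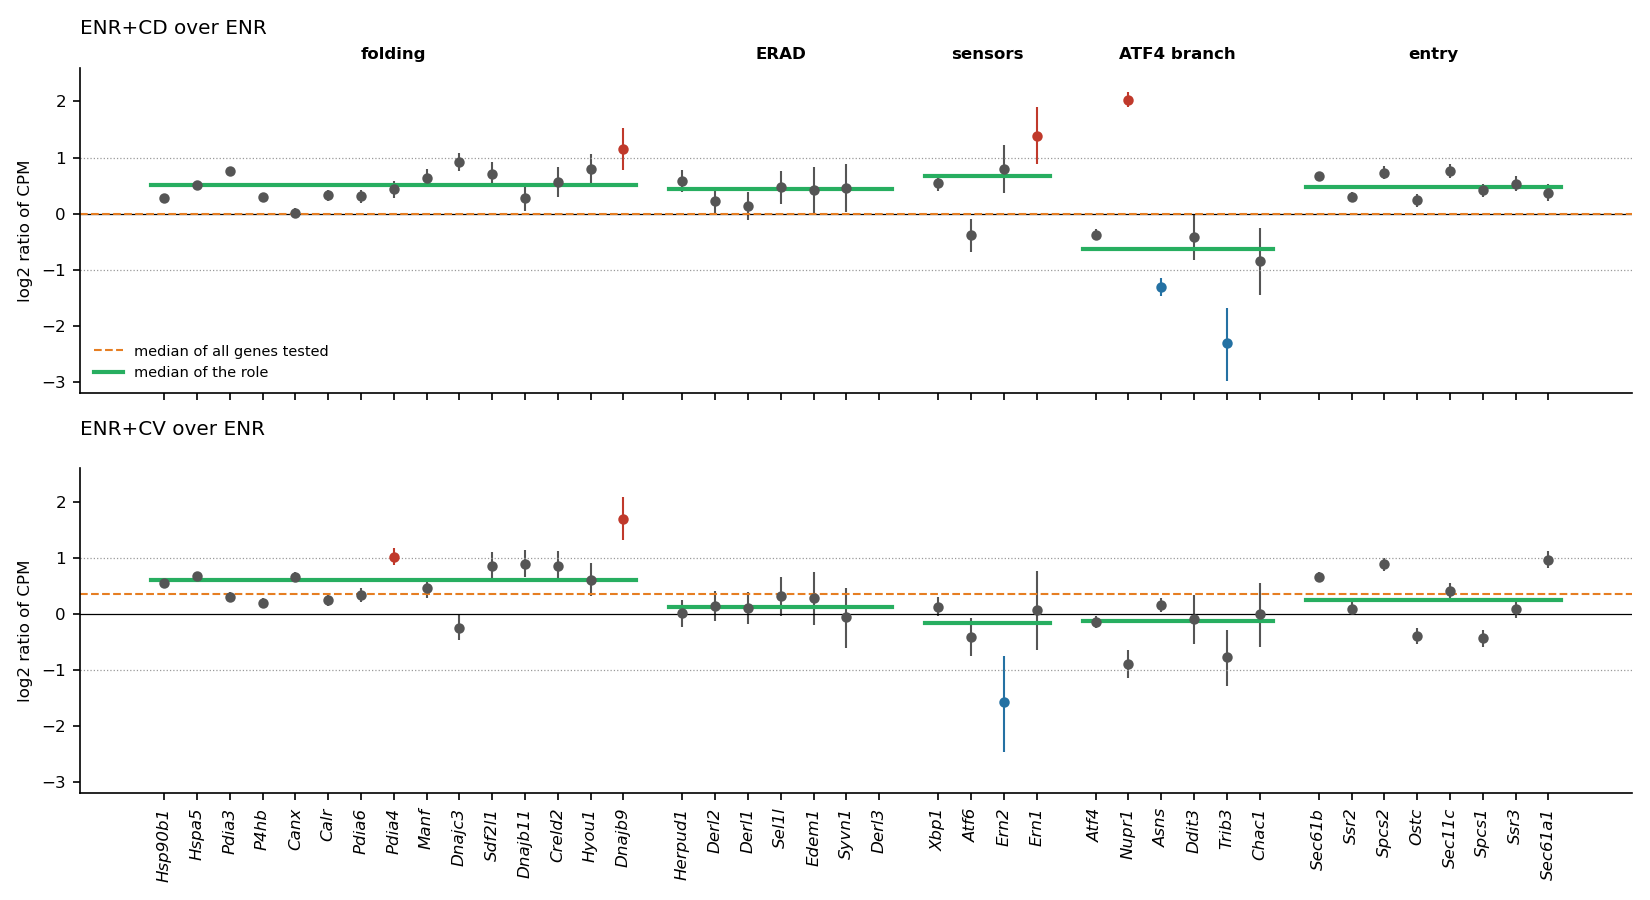
Log2 ratio of each gene's CPM in ENR+CD over ENR and in ENR+CV over ENR, by role, with exact binomial 95% intervals of the counts. Red points were called higher, blue points called lower and grey points neither, the green line is the median of a role, the orange dashed line the median of all genes tested (-0.01 and 0.35) and the dotted lines 2-fold. In ENR+CD the ATF4 branch median is -0.63 and those of the other 4 roles lie at 0.44 to 0.67.

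Within the ATF4 branch 1 gene was far higher in ENR+CD and the other 5 had ratios below 1. Nupr1, a small stress-induced nuclear protein encoded at chr7:126623249-126630861 on the minus strand (GENCODE, mm10), stood at 110 CPM in ENR, against 449.5 in ENR+CD and 59.1 in ENR+CV, from 559, 2040 and 174 UMIs. It was called higher in ENR+CD than in ENR at 4.10-fold [3.73–4.51] and than in ENR+CV at 7.60-fold [6.51–8.93], and stood 0.539-fold [0.452–0.640] in ENR+CV relative to ENR. No other member had a ratio over 3 in ENR+CD over ENR.

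Asns, asparagine synthetase (chr6:7675169-7693254, minus strand), had 239 CPM in ENR, against 96.3 in ENR+CD and 266 in ENR+CV. It was called 2.48-fold [2.22–2.77] lower in ENR+CD than in ENR and 2.76-fold [2.46–3.11] lower than in ENR+CV. Trib3, a pseudokinase that restrains the pathway (chr2:152337422-152344032, minus strand), had 27.3, 5.51 and 16 CPM, from 139, 25 and 47 UMIs, and was called 4.95-fold [3.22–7.92] lower in ENR+CD than in ENR. ENR+CD was thus the lowest library for both.

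Atf4 itself, which is controlled largely at translation, had 402, 310.2 and 364 CPM, a ratio of 0.772 [0.720–0.826] in ENR+CD. Ddit3, the factor CHOP, had 24.3, 18.3 and 22.8 CPM, with an interval of the ENR+CD ratio that reached 1.0. Chac1, an enzyme that degrades glutathione, had 14.7, 8.15 and 14.6 CPM, a ratio of 0.554 [0.363–0.832] in ENR+CD that was not called. As Nupr1 offset the others, the sum of the branch came to 817, 888 and 742 CPM.

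The entry genes summed to 2003 CPM in ENR, against 2863 in ENR+CD and 2540.0 in ENR+CV. All 8 had intervals wholly above 1 in ENR+CD, with none called, and the sum was 1.43-fold [1.39–1.47] the ENR level there. Sec61b, a subunit of the translocation channel, had 457, 725 and 719 CPM. Spcs2, of the signal peptidase that removes leader sequences, had 225, 373 and 414 CPM. Ssr2, of the complex that sits beside the channel, had 352, 431 and 375 CPM. Each of these had its lowest value in ENR, although the interval of the Ssr2 ratio in ENR+CV over ENR included 1. Ostc, of the oligosaccharyltransferase that attaches sugars, had 263, 310.0 and 200 CPM, and Spcs1, also of signal peptidase, 234, 312 and 173 CPM, so that these 2 were lowest in ENR+CV. The remaining Sec61a1, Ssr3 and Sec11c had ratios of 1.30 to 1.69 in ENR+CD.

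Genes of the same pathways outside the 40 were taken from lists of known function. Their counts of calls in ENR+CD over ENR are to be read against the 10.8% of all genes called higher and 9.35% called lower, and no list was tested against other genes. In ENR+CD over ENR, 3 of 27 other ER folding genes were called higher and 1 lower, with a median log2 ratio of 0.34. Those higher included Ppic, a prolyl isomerase, at 4.71, 27.3 and 3.06 CPM in ENR, ENR+CD and ENR+CV, and Agr3, a disulfide isomerase relative, at 14.7, 55.5 and 64.2 CPM. The 1 lower was Ero1l, the oxidase that recharges disulfide isomerases, at 189, 37.9 and 233 CPM, 4.99-fold lower in ENR+CD. None of 27 other translocation and glycosylation genes was called (median 0.30), 1 of 17 other ERAD genes was called higher (median 0.35) and 1 of 22 ER export genes was called higher (median 0.22), namely Tmed3 at 65.8, 137 and 78.9 CPM. In ENR+CV over ENR, Agr2, a disulfide isomerase relative of mucus-producing cells, was called 13.1-fold lower, at 682, 1138 and 52.0 CPM.

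Among 16 other sensors and factors, 3 were called higher and 1 lower in ENR+CD (median 0.07). Bhlha15, the secretory cell factor MIST1, was at 8.44, 28.4 and 5.44 CPM, and Creb3l2, a membrane-bound relative of ATF6, at 13.4, 44.7 and 32.3 CPM. Creb3l3, a relative found mainly in absorptive cells and liver, was at 18.3, 1.76 and 11.9 CPM, 10.4-fold lower in ENR+CD.

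Of 34 other known ATF4 targets, 13 were called lower in ENR+CD than in ENR and 1 was called higher, and their median log2 ratio was -0.75 against -0.01 over all genes. Their sum was 3246 CPM in ENR and 2075 in ENR+CD, a ratio of 0.639 [0.623–0.656], and was 3812 CPM in ENR+CV. Stc2, a secreted glycoprotein, was at 60.3, 4.85 and 24.8 CPM, and Cth, the cysteine-forming cystathionine gamma-lyase, at 150, 22.9 and 59.5 CPM. The 1 higher was Atf3, a factor that is also an immediate early gene, at 65.4, 320 and 356 CPM. Set against ENR+CV, 16 of the 34 were called lower in ENR+CD, where 18.9% of all genes were. None was called higher, where 7.1% of all genes were. The median of the 34 was -0.96 and that of all genes -0.36. Cytosolic and mitochondrial chaperones, which answer to other stresses, had 1 of 18 called higher and 3 called lower for ENR+CD over ENR (median -0.23).

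The alpha-defensin share of a cell, the percentage of its UMIs in 13 Defa genes, was then used to order cells within a library. Alpha-defensins are the peptides of Paneth cell granules, and no member entered the ordering. Free defensin RNA in the wells can add to this share, and its part was not tested. Levels are given as CPM outside the Defa genes. Bins of at least 50 cells were used. In ENR these ran from under 1% (1305 cells) to 15 to 30% (98 cells), and in ENR+CD from under 1% (290 cells) to 30% and over (58 cells). In ENR+CV only the lowest bin, with 959 of 985 cells, was large enough. Between the highest and lowest bins, genes outside the ordering moved with it: Lyz1, a Paneth cell lysozyme, was 56.5-fold higher in ENR and 77.1-fold higher in ENR+CD, Muc2, a goblet cell mucin, 42.1-fold and 22.4-fold higher, and Mki67, of dividing cells, stood at 0.423-fold and 0.224-fold. Chga, an enteroendocrine granule protein, stood at 0.873-fold [0.641–1.16] in ENR and was called lower in ENR+CD, at 0.142-fold [0.0754–0.245]. Whether Lyz1 and Muc2 came from the same cells was not tested.

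From the lowest to the highest bin, 8 of 39 members were called higher and 1 lower in ENR, where the rule called 1.72% of 9794 genes higher and 2.74% lower. In ENR+CD 6 of 33 were called higher and none lower, against 1.27% and 12.1% of 6555 genes. P4hb, Dnajc3, Sdf2l1, Herpud1 and Nupr1 were called higher in both libraries. The medians of the members were 0.67 in ENR and 0.32 in ENR+CD on the log2 scale, against 0.00 and -0.47 over all genes.

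Nupr1 climbed through every bin of both libraries. In ENR it stood at 62.7, 134, 222 and 371 CPM through the bins in order of Defa share, a ratio of 5.92 [4.33–7.98] between the ends. In ENR+CD it stood at 56.9, 165, 447.5, 1048 and 2456 CPM, a ratio of 43.2 [31.1–61.1]. The ENR+CV cells under 1% held 56.0 CPM, so that all 3 libraries were close to each other where Defa was low. The 248 Nupr1 UMIs of the highest ENR+CD bin came from 42 of 58 cells, with at most 23 in 1 cell, and the ratio was 40.9 [29.4–58.0] without that cell.

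P4hb rose through every bin, from 448 to 1094 CPM in ENR (2.44-fold [2.07–2.86]) and from 499 to 1377 CPM in ENR+CD (2.76-fold [2.25–3.36]). Sdf2l1, a partner of the BiP cochaperones, went from 46.0 to 163 CPM in ENR (3.56-fold [2.24–5.45]) and from 70.2 to 198 CPM in ENR+CD (2.82-fold [1.60–4.80]). Dnajc3 went from 90.2 to 233 CPM and from 162 to 347 CPM, 2.58-fold [1.78–3.65] and 2.15-fold [1.43–3.15]. Herpud1 went from 70.3 to 157 CPM and from 95.3 to 228 CPM, 2.24-fold [1.41–3.40] and 2.39-fold [1.43–3.87]. Each of these 4 had its highest level in the bin with most Defa.

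Ern2 stood at 8.01, 16.6, 23.5 and 101 CPM through the ENR bins, 12.6-fold [6.20–24.8] from end to end on 23 and 16 UMIs. In ENR+CD it stood at 2.65, 21.1, 32.3, 41.7 and 129 CPM, where the end bins held only 2 and 13 UMIs and were not compared. Sel1l (2.41-fold) and Ssr3 (2.07-fold) were called higher in ENR alone, and Sec11c (2.09-fold) in ENR+CD alone, and whether the libraries differ in these was not tested. Creld2, an ER chaperone, was called lower in ENR with 1 UMI in the highest bin against 128 in the lowest, a ratio of 0.141 [0.00354–0.800].

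Hspa5, Hsp90b1 and Pdia3, also abundant chaperones, were not called between the end bins of either library. Hspa5 went from 641 to 1018 CPM in ENR, a ratio of 1.59 [1.35–1.87], and from 966 to 1169 CPM in ENR+CD, a ratio of 1.21 [0.987–1.47]. Hsp90b1 was at 851 and 867 CPM at the ends in ENR, and at 1240 and 970.5 CPM in ENR+CD, a ratio of 0.783 [0.629–0.964]. Pdia3 went from 421 to 748 CPM in ENR, a ratio of 1.78 [1.46–2.15], and from 986 to 664 CPM in ENR+CD, a ratio of 0.673 [0.516–0.865]. In the cells with least Defa, these 3 already stood at larger values in ENR+CD than in ENR, and Pdia3 was called.

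**Figure D3:**
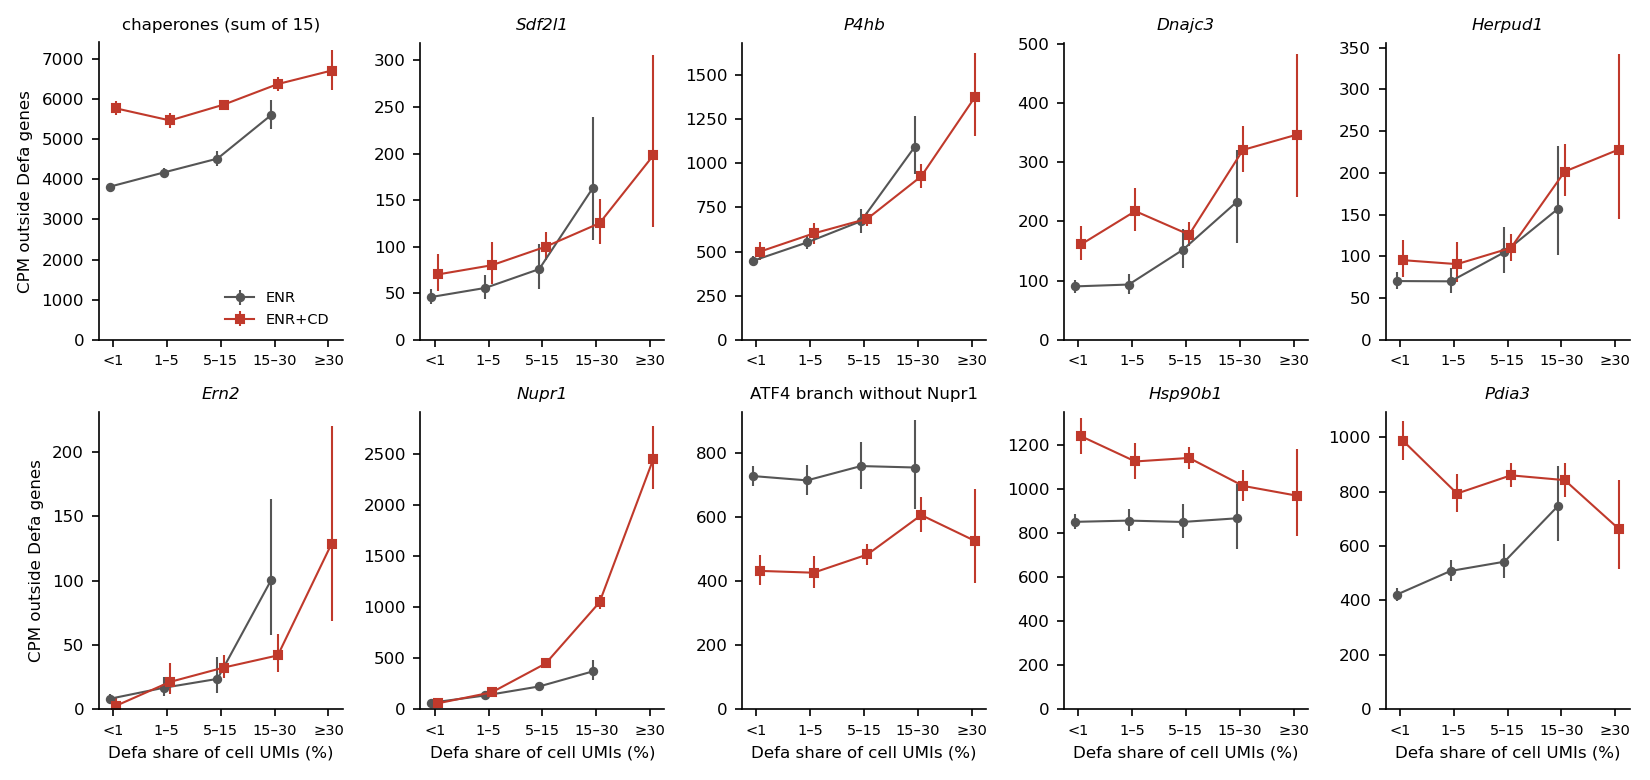
Level of the chaperone sum, 8 single genes and the ATF4 branch without Nupr1 across bins of the Defa share of a cell, in ENR and ENR+CD, as CPM outside Defa genes with Poisson 95% intervals. Nupr1 climbs from 56.9 to 2456 CPM in ENR+CD, while the ATF4 branch without Nupr1 runs from 714 to 759 CPM in ENR and from 426 to 606 CPM in ENR+CD.

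The chaperone sum in the highest bin of ENR was 1.47-fold [1.37–1.57] that in the lowest, at 5607 against 3817 CPM. In ENR+CD it was 1.16-fold [1.07–1.26], and 0.766-fold when CPM of all UMIs, Defa included, was used, so that its direction there rests on the scale. The ATF4 branch sum was 1.42-fold [1.22–1.66] in ENR and 6.10-fold [5.22–7.13] in ENR+CD. Without Nupr1 these became 1.04-fold [0.855–1.25] and 1.22-fold [0.892–1.63], whose intervals include 1. Through the bins in order, the branch without Nupr1 stood at 727.5, 714, 759 and 754 CPM in ENR, and at 431.5, 426, 483, 606 and 525 CPM in ENR+CD. Its 15 to 30% bin in ENR+CD, with 508 UMIs, had an interval of [554–661] that did not overlap that of the lowest, [386–481], while the highest bin held only 53 UMIs. Atf4 itself stood at 306, 284, 348, 419.8 and 446 CPM through the ENR+CD bins. Nupr1 thus made up most of the difference between the end bins, and the rest of the branch was also larger at 15 to 30% in ENR+CD.

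Because the libraries held different shares of Defa-rich cells, ENR+CD and ENR were also compared at matched Defa share. In bulk sums, fewer cells of a type and less RNA in each cell cannot be told apart, and matching on 1 measure removes this only as far as that measure goes. Over all genes tested, the median log2 ratio of ENR+CD over ENR was 0.19 under 1% Defa, 0.17 at 1 to 5%, 0.19 at 5 to 15% and 0.10 at 15 to 30%, and that of the members was 0.48, 0.35, 0.40 and 0.25. The chaperone sum was 1.51-fold [1.46–1.57] the ENR level under 1% Defa, 1.31-fold at 1 to 5%, 1.30-fold at 5 to 15% and 1.14-fold [1.06–1.22] at 15 to 30%. The entry sum was 1.61, 1.38, 1.30 and 1.28-fold, and the ERAD sum 1.22, 1.18, 1.22 and 1.11-fold in the same order, the last close to the shift of all genes. The sensors sum was 1.37, 1.42 and 1.45-fold in the 3 lower bins and 0.926-fold [0.708–1.23] in the highest. The ATF4 branch without Nupr1 stood at 0.593, 0.596, 0.636 and 0.803-fold, and the other ATF4 targets at 0.658, 0.656, 0.742 and 0.875-fold. On CPM outside Defa genes, the only scale used for this comparison, the chaperone sum thus lay above the ENR level in each of the 4 bins. The ATF4 branch without Nupr1 lay below it in each. These intervals left out 1, and both ratios were nearest to 1 in the highest bin. At 15 to 30%, mitochondrial genes stood at 0.589-fold and ribosomal protein genes at 0.833-fold. Their part in the ratios of the sums was not tested. The ERAD intervals included 1 at 1 to 5% and at 15 to 30%.

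Asns was called lower in ENR+CD in the 3 bins under 15%, with ratios of 0.376, 0.461 and 0.409, and stood at 0.647 in the highest. Trib3 was called lower in the same 3 bins, where Chac1 was called lower in those under 1% and at 5 to 15%. The background of genes called lower was 6.1%, 5.21% and 4.9% in these bins and 3.51% in the highest, in which no member was called lower. There Trib3 had a ratio of 0.228 [0.0579–0.943] on 6 and 5 UMIs, too few for a call. Nupr1 had a ratio of 0.909 [0.636–1.27] under 1%, 1.23 [0.959–1.57] at 1 to 5%, 2.01 [1.66–2.46] at 5 to 15% and 2.83 [2.17–3.75] at 15 to 30%. The difference in Nupr1 between the libraries was thus present in Defa-rich cells and was within counting error in the 2 lowest bins. The cells within a bin were not alike in Paneth cell RNA. Lyz1 stood at 2.84, 1.81, 2.07 and 2.36-fold the ENR level in ENR+CD, in order of Defa share. At 5 to 15% the share itself was 8.46% in ENR and 10.25% in ENR+CD. The part of this in the Nupr1 ratios was not tested.

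Of the members called higher in a bin, Pdia3 (2.34-fold) and Dnajb9 (2.99-fold) were so under 1%, against a background of 12.1%. Dnajc3 (2.33-fold) and Hyou1 (2.37-fold) were so at 1 to 5% (background 9.86%), Ern1 (4.15-fold) and Nupr1 at 5 to 15% (background 8.77%), and Nupr1 and Creld2 at 15 to 30% (background 3.37%). Creld2 there had 72 UMIs in ENR+CD and 1 in ENR. Apart from Nupr1 no member was called higher in more than 1 bin.

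**Figure D4:**
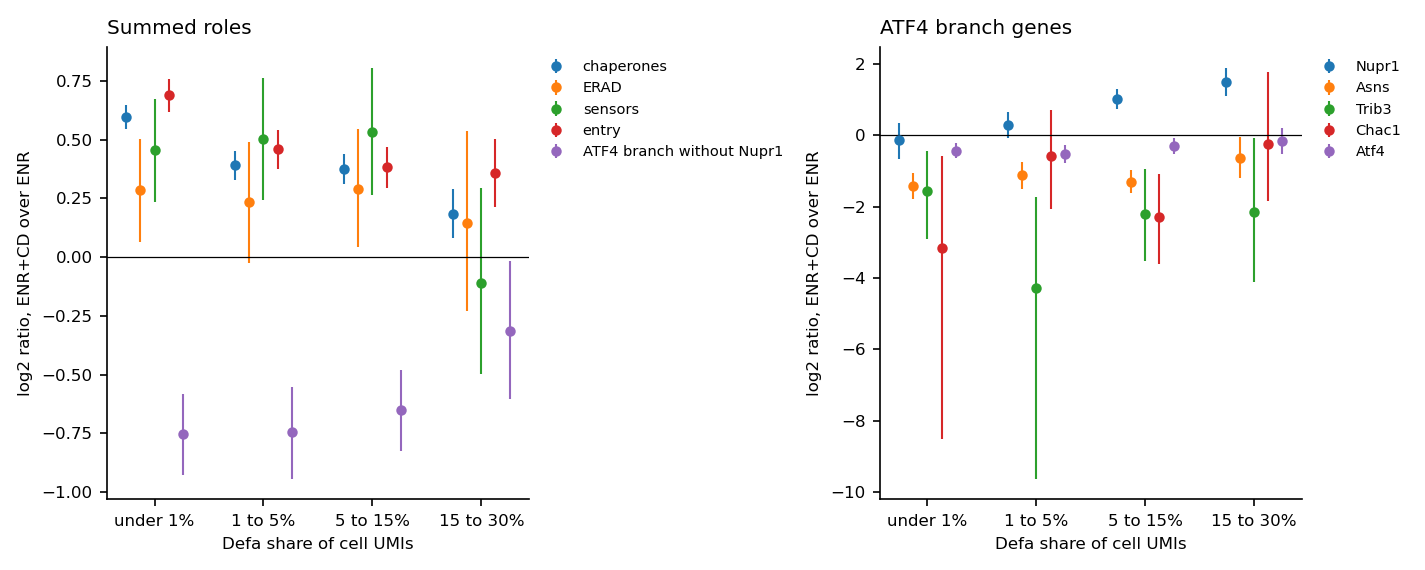
Log2 ratio of ENR+CD over ENR within the same bins of Defa share, for the summed roles (left) and for genes of the ATF4 branch (right). Values are from CPM outside Defa genes, with 95% intervals. The chaperone, ERAD and entry sums lie above 0 and the ATF4 branch without Nupr1 below 0 in all 4 bins, and Nupr1 crosses from near 0 to 2.83-fold.

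Cells were next ordered by their own chaperone share, so that the chaperones chose the order and only the other members are compared. In each library the 20% of cells with most chaperone UMIs were set against the 20% with fewest. The ERAD sum in the first was 1.53, 1.33 and 1.12-fold that in the second in ENR, ENR+CD and ENR+CV, the sensors 1.40, 1.40 and 1.22-fold and the entry genes 1.39, 1.32 and 1.40-fold. The ATF4 branch stood at 0.980 [0.884–1.09], 1.06 [0.962–1.18] and 1.27 [1.09–1.48], so that in ENR and ENR+CD it was level within counting error. The cells with most chaperone UMIs also held more Defa, 4.95% against 2.13% in ENR and 12.4% against 9.71% in ENR+CD, and fewer mitochondrial UMIs, 14.5% against 21.4% and 8.58% against 11.5%. In ENR+CV they held 1.31% against 0.0814% Defa, 3.08% against 7.61% mitochondrial UMIs, and a median of 2173 against 1564 UMIs. The part of these in the ratios was not tested. Sel1l (2.07-fold), Derl2 (2.04-fold), Ern2 (5.37-fold) and Atf6 (2.43-fold) were called in ENR, where 1.59% of genes were called higher and 0.26% lower, and Sel1l (2.07-fold) in ENR+CD, against 0.784% and 0.434%. In ENR+CV none was called, against 1.47% and 1.45%.

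Cells of other kinds were approached through marker lists. In each library the 10% of cells with the largest share of UMIs in a list were compared with the rest, and no cell type was assigned. For goblet cell markers (Muc2, Tff3, Zg16 and others) in ENR, Dnajb9 (2.47-fold), Dnajc3 (2.46-fold), Sdf2l1 (2.52-fold), Ern2 and Nupr1 (2.02-fold) were called higher, against a background of 1.59%. Ern2 stood at 62.4 CPM in those cells against 10.3 in the rest, 6.07-fold [3.70–9.79]. In ENR+CD Ern2 was 3.07-fold [1.97–4.67] and Nupr1 2.16-fold higher (background 0.655%), and in ENR+CV Nupr1 was 3.09-fold [2.06–4.52] higher (background 0.983%). The same cells were richer in Defa, 12.5% against 1.88% in ENR, 21.4% against 9.32% in ENR+CD and 4.40% against 0.0443% in ENR+CV. Goblet and Paneth RNA were thus not separated by this ordering. In ENR+CV the list rested largely on Spink4 (1978 UMIs) and Tff3 (1175), as Muc2 had 2 UMIs and Zg16 had 0. The top cells there began at a marker share of 0.0911%.

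For enteroendocrine markers (Chga, Chgb, Neurod1, Tph1 and others), Atf6 was called higher in ENR, at 196 CPM in the top cells against 32.6 in the rest, 6.0-fold [4.58–7.81] on 94 and 150 UMIs, with a background of 4.22%. These top cells were not richer in Defa (2.80% against 2.95%). In ENR+CD the Atf6 ratio was 1.81 [1.16–2.74], without a call, while Ern1 was called higher (2.08-fold, background 6.06%) and Nupr1 lower (0.480-fold, background 1.26%), in cells with a Defa share of 6.13% against 11.1%. Among the enteroendocrine genes Tph1, the enzyme of serotonin synthesis, was examined after these values had been seen. In ENR the 98 cells with a Tph1 UMI held 83 of the Atf6 UMIs, in 25 cells with at most 12 in 1 cell, which gave 363 CPM against 33.1 in the other cells. In ENR+CD the 93 cells with Tph1 held 14 Atf6 UMIs, 66.9 against 35.1 CPM. Whether the libraries differ in this was not tested.

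For stem cell markers (Lgr5, Olfm4, Ascl2 and others), Ddit3 was called lower in ENR (0.206-fold, on 3 UMIs in the top cells, background 1.37%). In ENR+CD Nupr1 was called lower (0.498-fold, background 0.923%), where the Defa share was 5.41% against 11.1%. Olfm4 had only 12 UMIs in that library, Ascl2 100 and Lgr5 381. The ordering in ENR+CD thus rested more on Slc12a2 (1744), Smoc2 (1587), Axin2 (727) and Rnf43 (660) of the same list. For proliferation markers Nupr1 was called lower in ENR+CV (0.218-fold, on 4 UMIs in the top cells, background 0.779%), where the Defa share was 0.0525% against 0.399%. Nupr1 was thus called lower with enteroendocrine and stem cell markers in ENR+CD, and higher with goblet markers in all 3 libraries, and in each case the cells with more Nupr1 held more Defa. The part of the Defa share in these calls was not tested. With the other combinations of these 4 lists, the libraries and the directions no member was called, leaving aside enteroendocrine markers in ENR+CV, which were too few to order the cells.

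**Figure D5:**
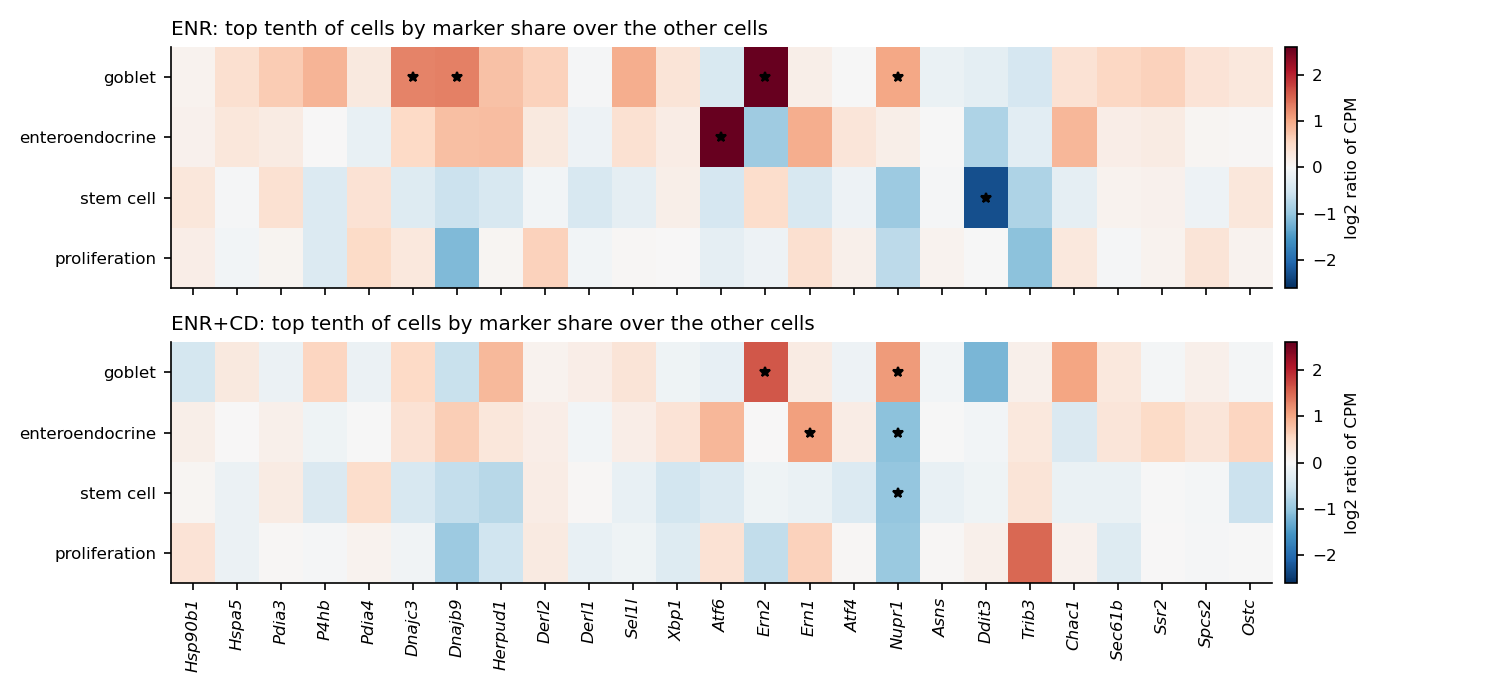
Log2 ratio of each of 25 genes between the 10% of cells with most marker UMIs and all other cells, for 4 marker lists in ENR and ENR+CD. Stars mark ratios that were called, and a gene with 1 or 2 UMIs in the top cells is drawn at 3 counts. Ern2 and Nupr1 are starred under goblet markers in both libraries, and Atf6 under enteroendocrine markers in ENR.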

How the data were processed

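The authors sequenced 3 Seq-Well arrays, aligned reads to mm10 through a Drop-seq portal, collapsed them by UMI, and deposited UMI counts per gene and cell. The submitters' processing notes name bcl2fastq, STAR and Seurat, with no version. The deposited counts were taken from the merged table of 6249 cells, in which every cell had over 1000 UMIs. Cells with at least 400 genes and under 8000 UMIs were kept (5913). Doublets were not called, and cells under 4000 UMIs served as an alternative. Counts were summed over cells with Python 3.11.15, numpy 2.4.6, scipy 1.17.1 and pandas 2.3.3, with exact Poisson intervals for levels and exact binomial (Clopper-Pearson) intervals for ratios. PCR copies are collapsed by UMI, and intervals cover counting error only. For medians of log2 ratios, counts under 3 were set to 3. A count of 0 does not show that a gene was silent. The scripts were tested on simulated data.

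The members and lists were chosen with earlier results of these data known. Values were given for the 4 members of each role with most UMIs, every sensor and ATF4 branch member and every called member, plus up to 3 called genes of each other list. Other members are named where they were called within a library or stood out in a range, after their values were seen. Promoters came from RefSeq (GRCm38.p6). Protein sequences were not used here. The ordering of cells by 1 further marker list is not reported here.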

Additional observations from a re-analysis of the deposited data

Results flagged for a closer look

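Pdia3, the disulfide isomerase of glycoprotein folding, went in opposite directions with the Defa share in the 2 libraries that could be compared. Its level in the bin with most Defa was 1.78 times that in the bin with least in ENR, and 0.673 times in ENR+CD, and neither interval included 1. The highest bins were 15 to 30% in ENR and 30% and over in ENR+CD. Between these end bins 12.1% of all genes were called lower in ENR+CD, against 2.74% in ENR. The median ratio over all genes was also below 1 in ENR+CD, as given above. The part of that shift in the Pdia3 ratio was not tested. The difference between the libraries was not tested, because there was 1 library for each condition.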

How the results depend on the processing

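Of the counts of called members, those lower in ENR+CD than in ENR and higher in ENR+CD than in ENR+CV stayed within 1.5 times under every alternative run. Members higher in ENR+CD than in ENR (3) numbered 5 in cells under 2000 UMIs and 12 at 1.5-fold. Members higher in ENR+CV than in ENR (2) numbered 1 outside Defa genes, 1 outside Defa, mitochondrial and ribosomal protein genes, 1 with median of ratios size factors, 1 with all cells, 4 in cells under 2000 UMIs and 11 at 1.5-fold. Members lower in ENR+CV than in ENR (1) numbered 3 outside Defa, mitochondrial and ribosomal protein genes, 3 with median of ratios, 3 at 1.5-fold, and 0 with at least 100 UMIs or in cells under 2000 UMIs. Members lower in ENR+CD when set against ENR+CV (2) numbered 1 with at least 100 UMIs and 5 at 1.5-fold. Fewer genes are tested at 100 UMIs. The causes of the other shifts were not tested.

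The chaperone sum by Defa share in ENR (1.47) was 1.22 with the cells in 5 equal groups, 1.34 outside Defa, mitochondrial and ribosomal protein genes, 1.18 as CPM of all UMIs and 1.33 in cells under 2000 UMIs. In ENR+CD (1.16) it was 1.34 with a wider alpha-defensin list, 1.06 outside Defa, mitochondrial and ribosomal protein genes and 0.766 as CPM of all UMIs, in which the Defa UMIs themselves enlarge the total. The ATF4 branch sum in ENR (1.42) was 1.14 as CPM of all UMIs and 1.04 without Nupr1. In ENR+CD (6.10) it was 4.02 with 5 equal groups, 4.02 as CPM of all UMIs, 3.24 in cells under 2000 UMIs, 3.81 in cells under 4000 UMIs and 1.22 without Nupr1. In both sets restricted by UMIs the highest bin was 15 to 30%. Leaving out Nupr1 or the cell richest in it was chosen after seeing the data.

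No called gene changed direction under the scalings, cell filters or weights tried. Ratios that were not called, and sums of roles between libraries, were less stable. With median of ratios size factors, 12 of 15 role sum ratios left their main interval and 3 fell on the other side of 1. Of 75 ratios of named genes, 15 fell on the other side of 1 under that scaling. No paired analysis was possible because each condition was 1 library, and for the same reason no replicate was left out. Depth limits genes with few UMIs, such as Derl3, Trib3 in ENR+CD and Ern2 in ENR+CV.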
